A study of Mus musculus with 48 samples.

Results

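The knockdown of Bmal1 was read out here in newly made exonic RNA of NIH 3T3 cells, an immortalised mouse embryonic fibroblast line that carries a working circadian clock. The comparison used 24 of the 48 libraries of the series, chosen by their labels: 12 4sU libraries of cells labelled shBmal1 and 12 of cells labelled shCTRL. The gene Bmal1 is listed in the files under its symbol Arntl. All cells were grown with fetal bovine serum and set in phase by 2 h in 50% horse serum. Harvests followed at 24 h and every 2 h up to 46 h, with 1 library per line and time point. RNA that had taken up 4-thiouridine (4sU) was biotinylated and pulled down with streptavidin, and the remaining RNA of the same cultures gave the total RNA libraries. Each pull-down received 30 ug, close to 50% of what a shCTRL culture gave and 60 to 70% of what a shBmal1 culture gave. The labels do not say how the hairpins were introduced, whether either line is a clone, how many hairpins were used or how long the cells were exposed to 4sU. Each line was followed as a single series of cultures, so a p-value here measures the spread of single libraries around each line's fitted time course, and a difference between the hairpins cannot be told apart from any other difference between the 2 lines.

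ARNTL pairs with CLOCK, and the pair activates genes that carry E-box sequences, among them the Per and Cry repressors, the nuclear receptors Nr1d1 and Nr1d2, and the transcription factors Dbp and Tef. The PER and CRY proteins return to block the pair, while NR1D1 and NR1D2 repress, and RORA activates, transcription of Arntl itself. DBP, TEF and HLF activate genes through D-box sequences, which NFIL3 represses. Exonic reads of 4sU RNA come from transcripts made during the labelling, spliced or not, whereas total RNA is mostly older message and intronic reads are mostly unspliced precursor.

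The 24 libraries had between 48873013 and 71451107 reads by the totals recovered from the table, and the 11313 listed genes held 57.3 to 63.6% of them. Values are RPKM, reads normalised for transcript length and library total. They were scaled to give every library the same median ratio of its genes to their geometric means over the 24 libraries. Only differences relative to the middle gene can therefore be seen, and the yeast and hybrid spike-ins added to the RNA were not used here. Of the genes, 11014 had a mean of at least 0.5 RPKM and were tested with limma on log2(RPKM + 0.1), a scale that understates the change of low genes. Calls were made below an adjusted p of 0.05, and a 2-fold call also needed a log2 difference of at least 1. Measured from its line's mean over the course, with no daily curve removed, the shBmal1 library of 34 h stood farthest. Its SD of log2 deviations over genes was 0.388, followed by that of 24 h at 0.307. The other 22 lay between 0.120 and 0.253.

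Arntl (chr7:113178471-113314126, GRCm38.p6) fell, but much less at some hours than at others. In shCTRL its lowest, median and highest 4sU exon values were 2.08, 13.7 and 23.7 RPKM, and in shBmal1 they were 3.98, 6.02 and 8.21. The control line climbed to a crest at 34 h and came down again, while the knockdown line stayed low throughout, so that the groups overlapped. shBmal1 was the lower line in 9 of the 12 harvests, and the higher line at 24, 26 and 46 h, when the control was near its trough. Over the course the mean was 12.8 ± 7.94 RPKM in shCTRL and 6.12 ± 1.08 in shBmal1 (SD, n = 12 each), a log2 difference of -0.72 ± 0.0794 (SE; limma, adjusted p = 3.28e-07). The call rested on removing the daily curve: without time terms the same difference had an adjusted p of 0.0571. Fits of 24 to 34 h or of 36 to 46 h, here and below, also held no time terms. With 24 to 34 h alone the log2 difference was -0.59 (limma, adjusted p = 0.401). With 36 to 46 h alone it was -0.85 (adjusted p = 0.0652).

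The core clock list held 17 genes, of which 15 were tested: 6 fell and 4 rose, with a median log2 difference of -0.06. Over all genes tested, 26.9% fell and 27.5% rose at the same adjusted p, with a median of -0.00. The 6 that fell were Nr1d2, Nr1d1, Per3, Rora, Arntl and Clock, and the first 4 of these passed 2-fold. The 4 that rose, as means on the log2 scale, were Cry1, Cry2, Per1 and Per2.

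The repressors of Arntl fell furthest of the list. Nr1d2 (chr14:18204056-18239106) ranged from 2.34 through a median of 4.79 to 10.4 RPKM in shCTRL and from 0.646 through 1.39 to 3.15 in shBmal1, lower at all 12 time points (log2 difference -1.59 ± 0.107, limma adjusted p = 3.81e-10). Nr1d1 (chr11:98767932-98775377), which encodes REV-ERBα, ranged from 15.8 through 49.0 to 153 RPKM in shCTRL and from 13.3 through 21.4 to 37.9 in shBmal1. It was also lower at all 12 time points, by -1.28 ± 0.0725 on the log2 scale (adjusted p = 3.54e-11). The ranges of each gene overlapped between the lines: the control trough around 32 h reached the level of the knockdown line. Rora (chr9:68653404-69388246), the activator that competes with them, went from a median of 4.38 RPKM (3.06 to 5.56) to 2.20 (1.17 to 2.89), and its groups did not overlap (-1.04 ± 0.113). Non-overlapping groups with shBmal1 lower were found for 3.3% of all genes tested, and among the 15 clock genes for Rora alone. Clock, the partner of ARNTL, had medians of 3.29 and 2.68 RPKM and a log2 difference of -0.28 ± 0.103 (adjusted p = 0.0264).

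The Per and Cry genes, which close the loop, did not move together. Per3 (chr4:150997018-151044707) had medians of 4.07 RPKM (1.96 to 9.45) in shCTRL and 1.72 (1.26 to 3.3) in shBmal1, lower at 12 of 12 time points (-1.12 ± 0.0692). Cry1 (chr10:85131700-85185054) had medians of 6.09 RPKM (2.51 to 15.2) and 11.4 (9.74 to 13.4), higher at 10 of 12 (0.82 ± 0.0529, limma adjusted p = 1.80e-10). In the knockdown line Cry1 varied little and stayed below the control crest at every hour. Cry2 rose by 0.50 ± 0.0669, from a median of 13.7 to 20.3 RPKM.

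Per1 and Per2 had log2 differences of 0.25 ± 0.0522 and 0.23 ± 0.0674, higher at 7 and at 6 of 12 time points. Both signs turned when only 24 to 34 h were used, without time terms, to -0.03 and -0.08, neither called (limma, adjusted p = 0.948 and 0.905). In plain RPKM the mean of Per2 was lower in shBmal1 (5.36 against 5.65). Its shBmal1 level was below the control at its crest (8.66 against 13.5 RPKM at 26 h) and above it at its trough (4.43 against 1.41 at 38 h). Bhlhe40, Bhlhe41, Csnk1d, Csnk1e and Ciart did not pass the test, with log2 differences between -0.10 and 0.04.

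Of 22 listed clock outputs, 17 were tested: 3 fell and 5 rose, with a median of -0.04. The D-box activators Dbp (chr7:45705100-45710203) and Tef (chr15:81802673-81826863) fell. Dbp had medians of 8.59 RPKM (2.92 to 33.9) and 3.99 (2.42 to 10.9), and Tef of 22.9 (9.44 to 54.0) and 11.7 (7.77 to 24.8), with log2 differences of -1.07 ± 0.102 and -0.80 ± 0.0675. Each was lower at 12 of 12 time points, and in each the lines met at the control trough. Hlf, the third member of that family, did not pass the test (0.20). Nfil3 (chr13:52967209-52982878), the repressor at the same sites, rose from a median of 6.93 RPKM (2.5 to 11.9) to 13.1 (10.4 to 29.6), higher at 11 of 12 (1.16 ± 0.106, limma adjusted p = 2.79e-08). Klf9, a Krüppel-like factor, fell by 0.35, and Id2, Klf10, Pnpla2 and Tsc22d3 rose by 0.62, 0.34, 0.22 and 0.21. From 24 to 34 h alone Tsc22d3 differed by -1.74e-05, not called.

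**Figure D1:**
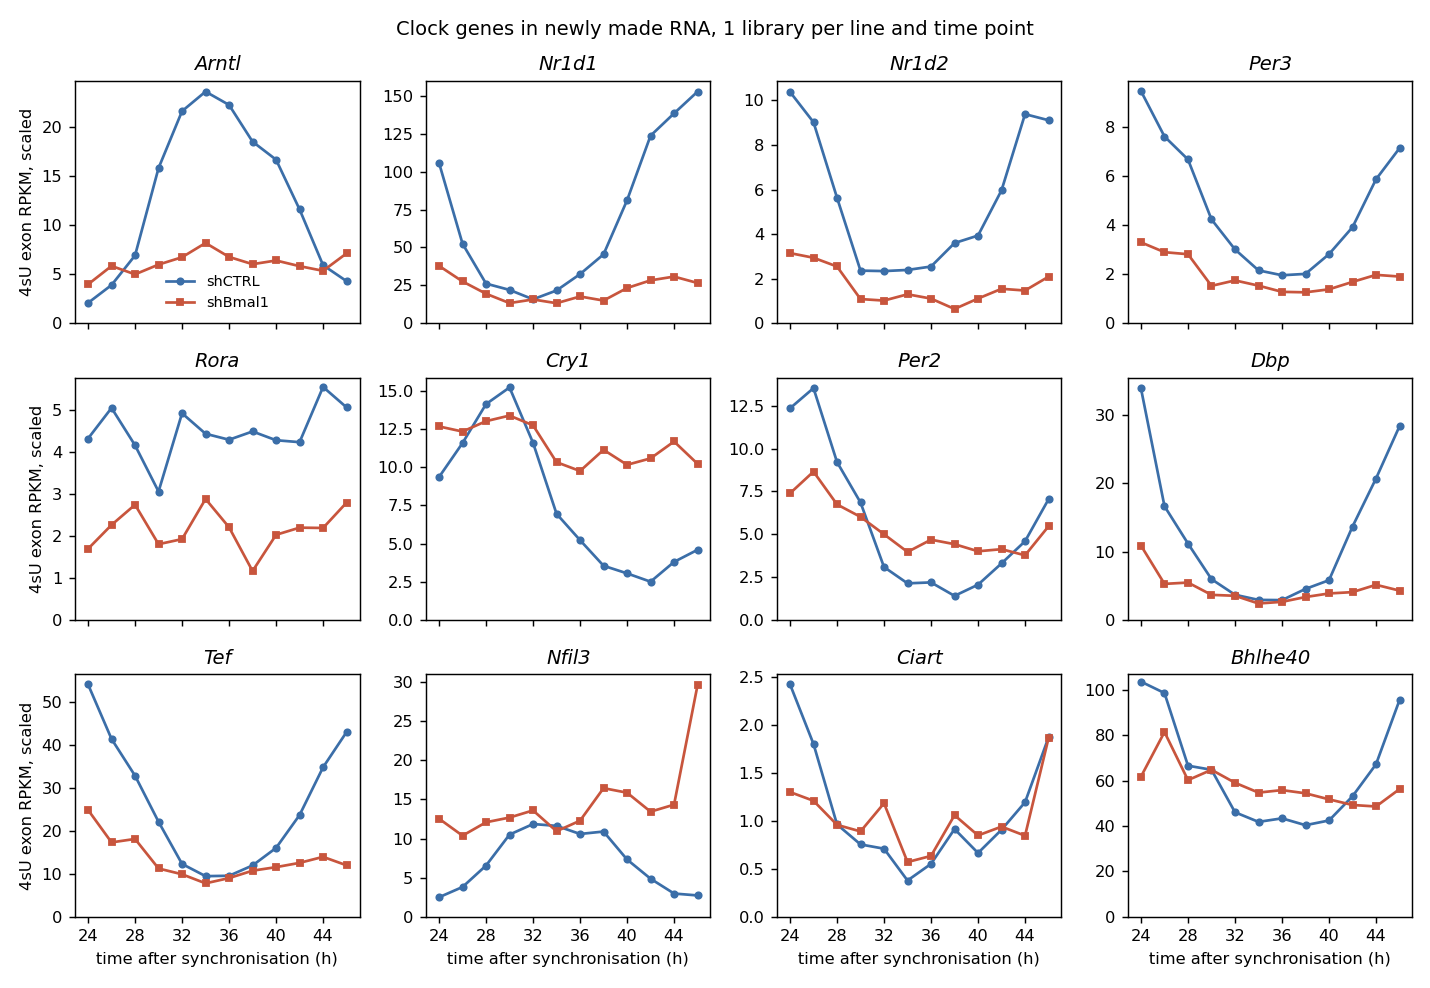
Newly made exonic RNA of 12 clock genes in scaled RPKM (vertical axis, from 0) against the time point in h (horizontal axis); circles are the shCTRL libraries and squares the shBmal1 libraries, 1 per time point. Arntl reached 23.7 RPKM in shCTRL and no more than 8.21 in shBmal1, whereas Cry1 stayed between 9.74 and 13.4 RPKM in shBmal1.

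The daily curves themselves differed for some of these genes and were not called different for the others. The fitted 24-h terms differed between the lines for 117 of the 11014 genes, 1.06%, and 12 of the 117 were on the 2 clock lists (8 of 15 core genes and 4 of 17 outputs). At an unadjusted p under 0.05 the count over all genes was 2143. The amplitude, the distance from the mean of the fitted 24-h curve to its peak in log2 units, was 1.5 for Arntl in shCTRL and 0.22 in shBmal1 (limma, adjusted p = 1.48e-05). It went from 1.21 to 0.17 for Cry1, from 1.56 to 0.63 for Nr1d1, from 1.43 to 0.45 for Per2 and from 1.14 to 0.27 for Nfil3. Dbp went from 1.68 to 0.62 and Tef from 1.2 to 0.53. Rora, whose mean passed 2-fold, had amplitudes of 0.12 and 0.13 (adjusted p = 0.697).

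The time points cover a single day, so a 24-h curve and a drift over the course are hard to separate. With a linear time term added, 21 genes were called, among them the same 8 core clock genes (Arntl, Nr1d1, Per1, Per2, Per3, Cry1, Bhlhe40 and Bhlhe41), and Dbp, Tef and Nfil3. Hlf was no longer called (adjusted p = 0.0673). Leaving out 1 time point at a time gave between 22 and 921 genes. Arntl, Nr1d1, Per1, Per2, Cry1, Bhlhe40, Dbp, Tef and Nfil3 were called in all 12 of these fits, but Per3 in 6 and Bhlhe41 in 5.

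A search of the bases just before each RefSeq start (250 bases, GRCm38.p6, both strands) for the E-box CACGTG and the D-boxes TTATGTAA and TTACGTAA set these directions beside the sequence. The E-box was found in 6.02% of all windows of the RefSeq promoter table and a D-box in 0.931%. Of the genes tested, 8443 had a window and 10.2% of these held an E-box in one or more. The windows of 12 of the 15 core clock genes were in the table, and those of Bhlhe41, Ciart, Cry1 and Per1 held an E-box. Per3 held 2 D-boxes, and among 12 outputs with a window Tef and Tspan4 held an E-box. Among the 2-fold genes with a window, 4 of 45 that fell (8.89%) and 1 of 27 that rose (3.7%) held an E-box. A D-box was held by 2 of 45 that fell (4.44%) and 1 of 27 that rose (3.7%), against 0.734% of genes tested. No RORE was found in these genes or in the 2 clock lists, against 0.379% of genes tested. These 5 stretches are printed because the E-box stands before genes that fell (Tef and Slpi, a protease inhibitor described below), a gene that rose (Cry1) and a gene that did neither (Ciart), and Per3 is the clock gene with D-boxes; capitals mark the motif matches, and bases inside the annotated span of the gene are left off.
Per3, chr4:151044708-151044915, minus strand: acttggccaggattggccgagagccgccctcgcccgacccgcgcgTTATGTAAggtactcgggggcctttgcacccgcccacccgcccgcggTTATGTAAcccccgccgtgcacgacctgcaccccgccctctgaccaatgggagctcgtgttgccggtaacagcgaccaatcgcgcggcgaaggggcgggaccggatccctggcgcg
Tef, chr15:81802423-81802672, plus strand: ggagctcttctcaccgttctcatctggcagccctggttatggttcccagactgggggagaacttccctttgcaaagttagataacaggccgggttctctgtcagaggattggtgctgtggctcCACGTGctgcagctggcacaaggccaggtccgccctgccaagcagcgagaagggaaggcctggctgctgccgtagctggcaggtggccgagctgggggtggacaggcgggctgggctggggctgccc
Cry1, chr10:85185055-85185304, minus strand: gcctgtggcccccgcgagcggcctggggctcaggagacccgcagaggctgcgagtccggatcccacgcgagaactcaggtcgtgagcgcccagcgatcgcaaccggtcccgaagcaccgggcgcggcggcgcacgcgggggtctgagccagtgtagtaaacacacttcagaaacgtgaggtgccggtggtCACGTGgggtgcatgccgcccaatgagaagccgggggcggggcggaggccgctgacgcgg
Ciart, chr3:95882258-95882478, minus strand: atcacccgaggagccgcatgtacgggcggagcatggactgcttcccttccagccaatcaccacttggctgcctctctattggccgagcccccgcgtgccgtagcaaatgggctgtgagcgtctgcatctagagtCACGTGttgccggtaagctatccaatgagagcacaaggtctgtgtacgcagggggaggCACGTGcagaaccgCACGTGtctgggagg
Slpi, chr2:164356508-164356757, minus strand: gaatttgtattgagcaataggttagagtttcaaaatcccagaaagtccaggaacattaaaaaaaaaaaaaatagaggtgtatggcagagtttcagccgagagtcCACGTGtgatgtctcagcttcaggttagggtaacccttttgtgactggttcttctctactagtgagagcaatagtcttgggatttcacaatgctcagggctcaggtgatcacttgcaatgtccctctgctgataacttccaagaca
Distances were counted back from the RefSeq start of each window, which in Per3 and Ciart lies inside the annotated span of the gene. The matches in Per3 lie 158 and 205 bases before it, that in Cry1 60, that in the upstream Tef window 127 and that in Slpi 146. Ciart, which encodes a repressor of the CLOCK and ARNTL pair, held 3 E-boxes within 116 bases of its window's start. It had medians of 0.911 and 0.950 RPKM (0.02 ± 0.126, limma adjusted p = 0.908). A match of letters is not evidence of binding.

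Over all genes tested, the clock genes included, differences of 2-fold or more were few. At an adjusted p under 0.05 and 2-fold, 74 genes were higher in shBmal1 (0.672%) and 82 lower (0.745%). With a pseudocount of 1 in place of 0.1 the counts were 41 and 42. Without any rescaling of the authors' RPKM, 91 genes were higher and 64 lower. A count with no size threshold gave 3026 higher and 2961 lower, or 4132 and 2090 with RPKM as deposited.

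Part of these calls came with a measured feature of the table. The transcript length behind each RPKM, recovered from the values, was the same in the 2 lines for 94.6% of listed genes, but 604 genes (5.34%) had been divided by different lengths. Of the 570 genes tested that had no single length, 9.47% were called at 2-fold, and they made up 34.6% of the 156 calls but 5.18% of the genes tested. Mrpl42, a mitochondrial ribosomal protein gene, is one case: its 4sU exon value went from a median of 3.32 to 19.5 RPKM (2.54), with a length of 3270 bases in shCTRL and 650 in shBmal1, while its total RNA differed by 0.28. Gm13187 went the other way (-2.48) with lengths of 343 and 1312 bases. The genes named from here on had the same length in both lines unless said otherwise, while the list counts below include members with different lengths, up to 6 a list. A single length left 41 higher (0.393% of 10444) and 61 lower (0.584%).

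**Figure D2:**
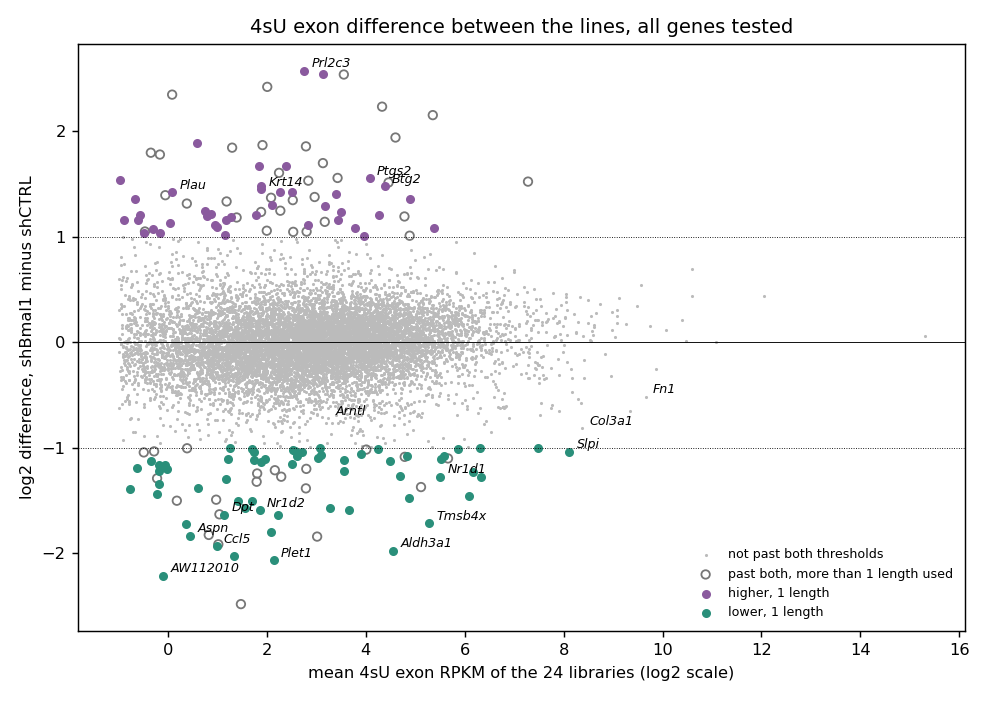
The log2 difference shBmal1 minus shCTRL in 4sU exon RNA (vertical axis) against the mean RPKM of the 24 libraries on a log2 scale (horizontal axis), 1 point per gene tested. Filled coloured points are the 41 higher and 61 lower genes with 1 length, open circles the 54 called genes with more than 1 length, and dotted lines mark 2-fold.

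The leading genes among the 61 that fell 2-fold come first. Aldh3a1 (chr11:61208510-61218418), an aldehyde dehydrogenase gene, went from 26.5, 37.5 and 48.1 RPKM (lowest, median, highest) in shCTRL to 6.41, 9.43 and 16.8 in shBmal1. The groups were apart at every hour (-1.98 ± 0.108, limma adjusted p = 2.03e-11). Tmsb4x (chrX:167207093-167213479), which encodes the actin-sequestering peptide thymosin β4, went from 50.9, 58.9 and 63.7 RPKM to 11.3, 16.6 and 25.7 (-1.72 ± 0.0688), again with no overlap.

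Plet1 (chr9:50494525-50505639), a surface protein gene known from placenta and epithelial progenitors, went from a median of 7.78 RPKM (4.70 to 10.1) to 1.57 (1.0 to 2.15), by -2.07 ± 0.104. Plet1os, which overlaps it on the other strand, fell by 1.72. The libraries were strand-specific per the labels, but the labels do not give the strand setting of the counting, so reads of the pair cannot be told apart. AW112010 (chr19:11047612-11050566), a long noncoding RNA in RefSeq, had the steepest fall among genes with a single length. It went from a median of 1.68 to 0.284 RPKM (-2.22 ± 0.177), the latter resting on a median of 11.5 reads per library.

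Mymx, a membrane peptide gene for myoblast fusion, went from a median of 3.99 to 0.874 RPKM (-2.02), and Tacr2, a tachykinin receptor gene, from 7.34 to 2.19 (-1.64). Clec3b, which encodes the plasminogen-binding tetranectin, and Dpt, which encodes dermatopontin of the matrix, went from 6.36 to 1.76 and from 3.65 to 0.934 (-1.80 and -1.64). In Mymx, Tacr2, Clec3b and Dpt the 12 shBmal1 libraries all lay below the 12 shCTRL libraries, as they did for 42 of the 61 genes that fell 2-fold. Ccl5, a chemokine, fell from a median of 3.40 (0.735 to 4.77) to 0.605 RPKM (0.318 to 1.79), but at 24 h the lines were alike, at 0.735 and 0.800.

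The 41 genes that rose 2-fold were mostly low in the control, with a median of 1.92 RPKM there against 7.17 for the 61 that fell. Prl2c3 (chr13:12790816-12800093) and Prl2c2 (chr13:12996120-13005393), near-identical copies of the growth-associated prolactin relative proliferin, were furthest up. Prl2c3 went from 0.614, 1.2 and 6.96 RPKM to 3.60, 12.1 and 24.3 (2.58 ± 0.187), and Prl2c2 from a median of 1.46 to 14.5 (2.55 ± 0.167). Both were higher at 12 of 12 time points though the ranges overlapped, since both lines declined from the first hours to the last. How reads were shared between the 2 copies is uncertain.

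Ptgs2 (chr1:150100031-150108234), the inducible cyclooxygenase, went from 5.86, 8.35 and 11.8 RPKM to 15, 23.8 and 44.3 (1.55 ± 0.122, limma adjusted p = 3.52e-09). Btg2 (chr1:134074865-134079155), an antiproliferative gene that p53 and growth factors induce, went from 8.79, 10.6 and 13.8 RPKM to 24.8, 29.3 and 42.7 (1.48 ± 0.0755). In both genes the lowest shBmal1 library was above the highest control.

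Less abundant genes followed. The urokinase gene Plau went from a median of 0.50 to 1.5 RPKM (1.42) and the keratin gene Krt14 from 1.85 to 5.00 (1.45). Atg9b, an autophagy gene, went from 1.52 to 5.30 RPKM (1.67), Ces2g, a carboxylesterase, from 1.71 to 5.72 (1.48), and Pla2g7, which encodes platelet-activating factor acetylhydrolase, from 2.81 to 7.65 (1.43). None of these 5 genes had overlapping groups, which was usual here: it held for 30 of the 41 genes that rose 2-fold. The predicted genes Gm50147 and Gm10718 rose by 1.89 and 1.67.

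**Figure D3:**
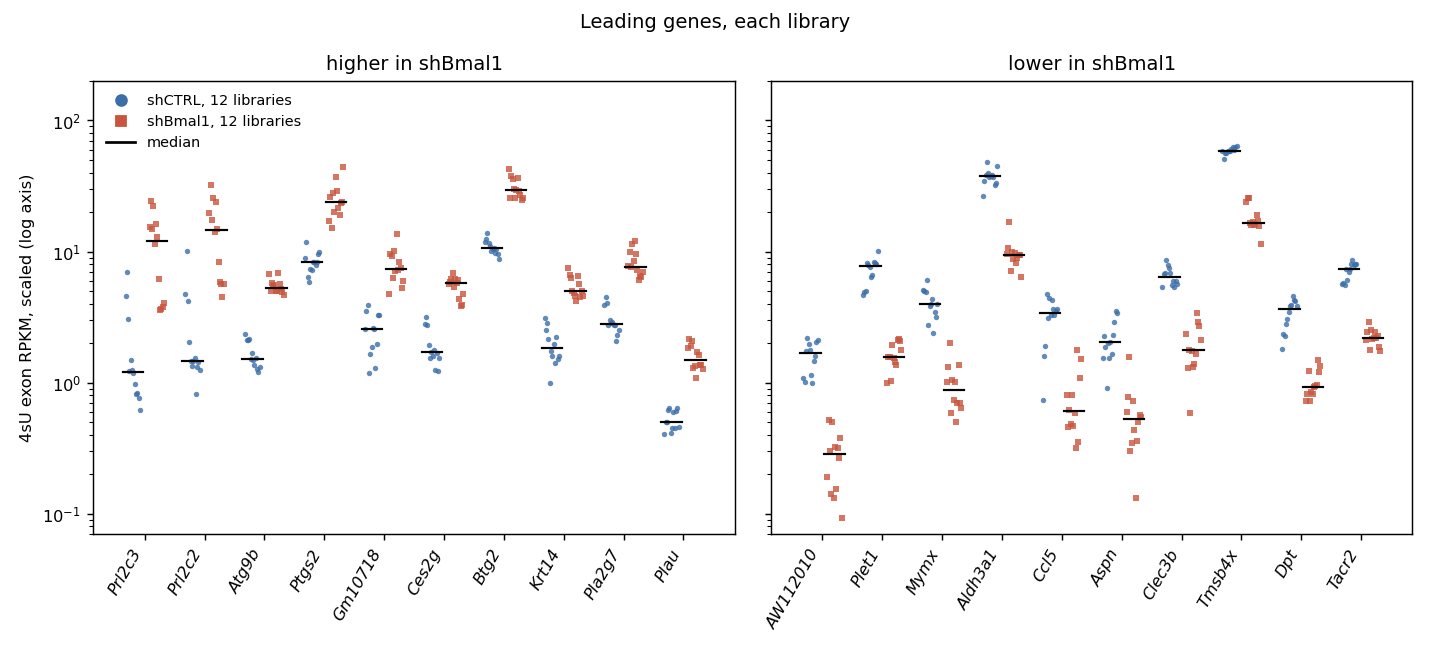
Scaled 4sU exon RPKM on a log axis for 10 genes that were higher and 10 that were lower in shBmal1; each circle is 1 of 12 shCTRL libraries, each square 1 of 12 shBmal1 libraries and each bar the median. Aldh3a1 medians were 37.5 and 9.43 RPKM, and Ptgs2 medians 8.35 and 23.8.

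In RPKM, the largest shifts were in abundant genes that moved less than 2-fold. Rpl41, a ribosomal protein gene, went from a median of 1167 (898 to 1456) to 1856 RPKM (1646 to 2368), a log2 difference of 0.69 ± 0.0541. The ferritin chains parted: the heavy chain Fth1 went from 792 to 517 RPKM (-0.65) and the light chain Ftl1 from 617 to 872 (0.54). Fn1, which encodes fibronectin, went from 958 to 714 RPKM (-0.52) and Col3a1, a fibrillar collagen, from 444 to 243 (-0.82), both with no overlap.

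Slpi, the secretory leukocyte protease inhibitor, went from 318, 358 and 474 RPKM to 108, 184 and 254 (-1.04 ± 0.0862), and the complement gene C3 from a median of 258 to 112 (-1.01 ± 0.0940). Both were lower at 12 of 12 time points, although C3 climbed through the course in both lines and its ranges overlapped. S100a10, Cited2, Nid1 and Cdc34 rose by 0.50 to 0.73, and the predicted gene Gm38182 fell by 0.57.

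Groups of genes were set beside the same shares of all genes, 27.5% rising and 26.9% falling. The cell cycle and stress lists come first. Of 20 p53 targets tested, 16 rose and 3 fell, with a median of 0.48. Mdm2, the ubiquitin ligase that restrains p53, went from a median of 36.2 RPKM (32.6 to 48.7) to 74.8 (48.9 to 116), with no overlap (0.95 ± 0.0764), and Sesn2, a stress-response sestrin, from 26.6 to 53.6 (1.08). Cdkn1a and Bax rose by 0.43 and 0.47. Rrm2b, Gadd45a and Sesn1 fell by 0.68, 0.62 and 0.41.

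Of 25 G1/S and DNA replication genes, 15 rose and 1 fell, with a median of 0.33 (Uhrf1 was the one that fell, -0.23). E2f2, a transcription factor of S-phase entry, went from 1.16 to 2.72 RPKM (1.11), and Mcm3, a helicase subunit, from 19.9 to 32.3 (0.64). Of 25 G2/M genes, 15 rose and 1 fell, with a median of 0.29. The mitotic kinase gene Aurka went from a median of 14.1 to 24.3 RPKM (0.83) and Ube2c, an E2 enzyme of the anaphase-promoting complex, from 27.2 to 48.3 (0.83), while Mki67, the proliferation marker, fell by 0.49. In most cell cycle genes the ranges overlapped: 2 of 25 G1/S genes and none of 25 G2/M genes had all 12 shBmal1 libraries above all controls, against 3.14% of all genes tested.

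The matrix lists split by family. All 5 small leucine-rich proteoglycans tested fell, out of 10 on the list, with a median of -0.95. Dcn, which encodes decorin, went from a median of 109 RPKM (65.5 to 117) to 43.5 (25.8 to 57.1), by -1.23 ± 0.104, and Aspn, encoding asporin, from 2.04 to 0.524 (-1.84). Prelp, Ogn and Bgn fell by 0.95, 0.88 and 0.65. Of 26 fibrillar collagens, crosslinkers and large matrix proteins, 10 rose and 9 fell, with a median of -0.01: Col3a1 fell and Col1a1 rose (0.16), while the CCN genes Ccn1 and Ccn2 rose by 0.93 and 0.73.

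Among 18 matrix proteases and inhibitors, 7 rose and 7 fell. The metalloproteinase gene Mmp11 went from a median of 125 RPKM (53.5 to 158) to 43.9 (28.6 to 67.1), by -1.28 ± 0.0754. Of 17 integrins, cadherins, connexins and syndecans, 8 rose and 7 fell. Of 19 actin and SRF genes, 10 rose and 2 fell, with a median of 0.24: Actb, Tpm4 and Cnn2 rose by 0.44, 0.47 and 0.38 opposite Tmsb4x, and the one other gene past 2-fold, Tpm1, had different lengths in the lines.

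Among 19 inflammatory and NF-κB genes, 7 rose and 7 fell, with a median of -0.02. Ptgs2 and the cytokine gene Lif rose (1.55 and 1.22), whereas Ccl5, the acute-phase gene Saa3 and C3 fell (-1.94, -1.48 and -1.01). Saa3 went from a median of 47.4 (13.3 to 59.4) to 13.4 RPKM (6.90 to 27.5). Of 16 interferon-stimulated genes, 4 rose and 7 fell, led by Ifit3 (-1.40) and Gbp2 (-1.0). Of 17 growth factors and binding proteins, 5 rose and 5 fell. Igf2, the fetal insulin-like growth factor, went from a median of 18.5 RPKM (14.8 to 23.9) to 6.53 (4.67 to 7.32), by -1.59 ± 0.0748, and Igfbp7, a binding protein of that family, from 6.63 to 15.7 (1.23).

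Of 20 immediate early genes, 9 rose and 4 fell, with a median of 0.16. Btg2 and the phosphatase gene Dusp5 (0.81) were furthest up, and Egr3 and Egr1, zinc-finger factors of the serum response, fell by 0.62 and 0.48. Of 27 ATF4 and unfolded protein response genes, 10 rose and 5 fell, with a median of 0.06. The ATF4 targets Trib3 and Chac1 rose by 1.01 and 0.87, but both had 1 extreme library: in shBmal1 at 46 h Chac1 stood at 211 RPKM and Trib3 at 89.5, against medians of 27.6 and 15.5. Without 46 h the log2 differences were 0.66 and 0.84, still called. Nfil3 also had its highest value in that library (29.6 RPKM).

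Among metabolic lists, 12 of 18 glycolysis and hypoxia genes rose and none fell, with a median of 0.19. Pgk1 and Ldha, glycolytic enzymes, went from 17.6 to 26.8 and from 83.1 to 114 RPKM (0.59 and 0.47). Of 24 cholesterol and fatty acid synthesis genes, 8 fell and 1 rose, with a median of 0.00. Acly, which makes cytosolic acetyl-CoA, stood apart with a fall from a median of 109 RPKM (94.8 to 122) to 64.5 (47.0 to 75.4), by -0.75 ± 0.0521, while the other 7 that fell did so by 0.20 or less. Of 26 aldehyde dehydrogenases and NRF2 targets, 13 rose and 6 fell, with a median of 0.10: Hmox1, heme oxygenase, rose by 0.78 opposite Aldh3a1.

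Of 23 oxidative phosphorylation genes, 11 rose and 3 fell, with a median of 0.15. Ndufa4 went from 34.5 to 18.7 RPKM (-0.77) with no overlap, and the list's furthest value upward, Ndufb8 (1.94), had different lengths. Of 25 cytosolic ribosomal protein genes, 6 of them with different lengths, 12 rose and 2 fell, with a median of 0.19. Of 7 noncoding host genes, 4 rose and none fell, led by Snhg8 (0.65).

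The last lists hold the machinery of RNA synthesis and decay. Of 36 genes for RNA polymerase II, Mediator and general factors, 13 rose and 3 fell, with a median of 0.08. Polr2a, the catalytic subunit, went from a median of 78.1 RPKM (71.8 to 89.9) to 111 (93.7 to 142), by 0.49 ± 0.0434, with no overlap. Of 38 mRNA decay factors, 17 fell and 6 rose, with a median of -0.06. Xrn1 and Xrn2, the main 5′ exonucleases, fell by 0.57 and 0.40, and Ago2, the slicing Argonaute, went from a median of 44.7 (39.2 to 51.5) to 33.8 RPKM (27.1 to 37.0), by -0.45 ± 0.0376, with no overlap.

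Over all lists together, the cell type markers below included, 499 different genes were tested. Of these, 201 rose and 118 fell (259 and 92 with RPKM as deposited), beside 27.5% rising and 26.9% falling of all genes tested. A gene on 2 lists, such as Btg2 or Sesn2, counted once here and on each list above. The lists were chosen with earlier results known, so these counts do not measure a shift over all genes.

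**Figure D4:**
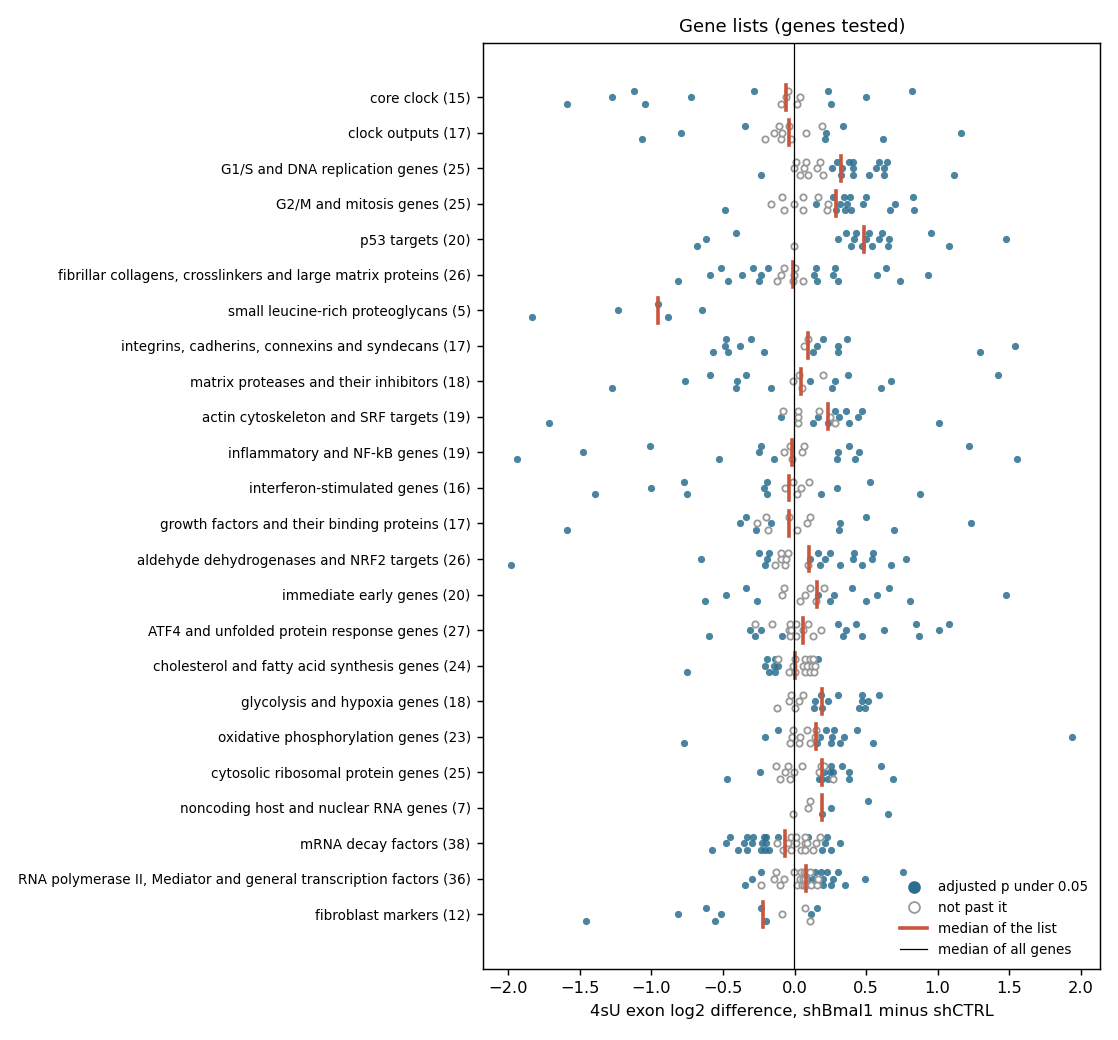
The log2 difference shBmal1 minus shCTRL in 4sU exon RNA (horizontal axis) for every tested member of the 24 lists with 5 or more tested genes (rows, number tested in brackets). Filled points passed an adjusted p of 0.05, open points did not, thick bars are list medians and the vertical line is the median of all genes; the p53 targets have a median of 0.48 and the small leucine-rich proteoglycans of -0.95.

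Fibroblast markers were abundant in both lines but lower in shBmal1. Of 12 tested, 7 fell and 2 rose, with a median of -0.22, and their summed level was 3578 to 3995 RPKM in shCTRL and 2983 to 3629 in shBmal1. Pdgfra, the receptor gene that marks mesenchymal fibroblasts, went from a median of 102 RPKM (86.7 to 108) to 37.6 (26.2 to 44.8), by -1.46 ± 0.0596. Pdgfrb and Thy1 fell by 0.56 and 0.62, and Vim, the mesenchymal filament gene, rose by 0.12. In such bulk RNA, fewer cells of a type and less RNA per cell cannot be told apart.

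Markers of other cells were scarce. Of 11 epithelial markers 2 were tested, Krt14 and Plet1, which went in opposite directions, and their sum was 7.48 to 11.7 RPKM in shCTRL and 5.62 to 8.53 in shBmal1. The 4 leukocyte markers tested, of 10, summed to 12.9 to 18.6 and 14.4 to 20.2 RPKM, and Lyz2 alone rose (0.71). Of 10 muscle markers, Mymx fell and Des rose (1.04). The single endothelial gene listed summed to 0.179 to 0.358 RPKM in shCTRL and 0.241 to 0.724 in shBmal1, and Plin4, the 1 adipocyte marker tested, fell by 0.20. The part of cell composition in the matrix and surface gene differences was not tested.

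The same genes were then read in total RNA, from separate libraries of the same cultures, and in the introns of the same 4sU libraries. The 41 genes that rose had median log2 differences of 1.22 in 4sU exons, 1.23 in total exons and, for the 27 with measurable introns, 1.10 in 4sU introns. For the 61 that fell the medians were -1.20, -1.42 (60 genes) and -0.88 (47 genes). These genes were picked by their 4sU exon difference, so only that median was bound to pass 2-fold. A 2-fold call of the same sign was found in total exons for 39 of 41 that rose and 56 of 60 that fell. In introns it was found for 16 of 27 and 16 of 47. These total exon and intron values were not limited to genes with a single length in those readouts.

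The difference between 4sU exon and total exon effects was itself tested for 9776 genes. With a gap of at least 0.5 and an adjusted p below 0.05, it was higher in 4sU for 28 (0.286%) and lower for 20 (0.205%). The predicted gene Gm43126 led those higher in 4sU (0.894), followed by Nsf and Ahcyl1. Nsf, a membrane fusion ATPase gene, went from a median of 17.2 RPKM (15.1 to 18.3) to 9.47 (8.59 to 11.8) in 4sU exons, a log2 difference of -0.81 ± 0.0445, while total RNA differed by -1.62 ± 0.0421 and 4sU introns by -0.14 ± 0.050. Ahcyl1, an IP3-receptor-binding protein gene, had -0.84, -1.65 and -0.15 in the same order.

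Rab5b, an endosomal GTPase gene, had -0.39, -1.16 and -0.13, and Npc1, a lysosomal cholesterol transporter gene, -0.27, -0.94 and -0.11. Acly followed with -0.75, -1.34 and -0.27. In each of Nsf, Ahcyl1, Rab5b, Npc1 and Acly total exons fell most, 4sU exons less and introns least. The cyclin gene Ccnd2 had -0.14 (not called) in 4sU exons, -0.93 in total exons and 0.26 in introns.

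On the lower side, Lars2, a mitochondrial leucyl-tRNA synthetase gene, differed by -0.03 ± 0.0886 in 4sU exons and -0.00 in introns, neither called, but was 1.02 ± 0.0973 higher in total RNA. Gna15, a G protein subunit gene, had 1.07 in 4sU exons and 1.78 in total. The predicted gene Gm47428 moved between libraries: in shBmal1 it was 2.01 to 7.48 RPKM from 26 to 36 h but 15.5 to 24.0 at the other 6 time points, and its mean difference of -0.60 turned to 0.13 with 36 to 46 h alone (adjusted p = 0.718). The counts depended on the part of the course: 82 higher and 97 lower from 24 to 34 h, but 12 and 2 from 36 to 46 h, and 11 lower without 26 h.

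Exon and intron effects within the 4sU libraries differed, by the same rule, for 48 genes with the exon higher (0.505% of 9509) and 105 with it lower (1.1%). Arntl had the widest gap of all called genes. Its introns went from a mean of 0.637 to 0.832 RPKM, a log2 difference of 0.57 ± 0.0809 (limma, adjusted p = 1.57e-05), against -0.72 in 4sU exons and -0.92 ± 0.0810 in total exons. Exon minus intron was -1.29 ± 0.0558 (adjusted p = 1.08e-10).

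Tmsb4x (-1.72 in exons, -0.51 in introns and -2.07 in total exons) and Mterf4, a mitochondrial ribosome factor gene, also had exons far below introns. Mterf4 went from a median of 25.9 RPKM (20.4 to 29.5) to 13.3 (9.59 to 14.4) in 4sU exons (-1.01) while its introns differed by 0.05 (adjusted p = 0.555) and total exons by -1.37. Rrm2b, the p53-inducible ribonucleotide reductase subunit, had -0.68, 0.07 and -1.0 in exons, introns and total, opposite to most p53 targets. Nr1d1 had -1.28 in exons and -0.65 in introns, and Nsf and Ahcyl1 were also among the 105.

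With the exon higher, Igfbp7 had 1.23 in exons and 0.32 in introns, Krt80, a keratin gene, 1.40 and 0.54, and Fos, an immediate early factor, 0.40 and -0.61 ± 0.275 (intron not called, adjusted p = 0.0808). B3gnt9, a glycosyltransferase gene, was -0.12 in exons (not called) and -1.09 in introns. The intron comparison rests on the scaling: as deposited, the intron values of the shBmal1 4sU libraries had been divided by totals 1.35 to 1.39 times their exon totals, the median difference over all genes was 0.51, and 5084 genes were called higher and 7 lower.

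**Figure D5:**
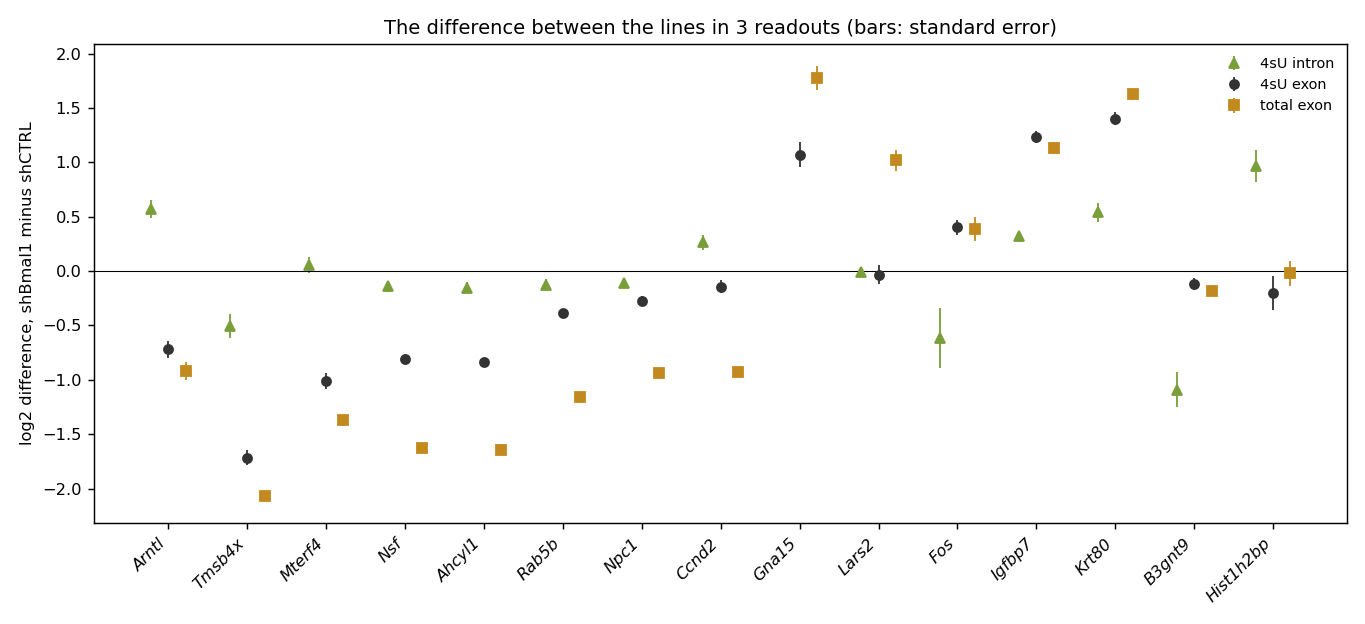
Log2 difference shBmal1 minus shCTRL (vertical axis) in 4sU introns (triangles), 4sU exons (circles) and total exons (squares) for 15 genes whose readouts differed; bars are standard errors over 24 libraries. Arntl stands at 0.57, -0.72 and -0.92, and Nsf at -0.14, -0.81 and -1.62.

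Outside the clock lists, the 6 genes whose 24-h terms differed at the smallest adjusted p were Sh3pxd2b, Adamts4, Gm26674, Slc6a6, Gm45507 and Adam19. Sh3pxd2b, a podosome scaffold gene, had an amplitude of 0.53 in shCTRL, with its fitted peak at 34.7 h, and 0.17 in shBmal1 (limma, adjusted p = 0.00129). Adamts4, an aggrecan-cleaving protease gene, went from 0.91 with a peak at 34.9 h to 0.16 (adjusted p = 0.00388), and its 4sU exon values spanned 1.26 to 5.06 RPKM in shCTRL and 1.25 to 2.57 in shBmal1. The taurine transporter gene Slc6a6 went from 0.33 to 0.07 and the membrane protease gene Adam19 from 0.36 to 0.20.

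These 4 amplitudes were smaller in shBmal1, but that held for only 43 of the 117 genes called, a minority. Gm45507 had the larger amplitude in shBmal1 (0.30 and 0.59), and Gm26674 had 0.51 in both lines with peaks at 35.1 and 42.6 h. With a linear time term Gm45507 was no longer called (adjusted p = 0.205), and the other 5 were.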

How the data were processed

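The authors deposited exon and intron RPKM per gene for all 48 libraries, as 11313 gene symbols by library. The tools named are Trim Galore and HOMER 4.11.1, and the build is mm10 (GRCm38.p6), per the submitters' processing notes. The aligner and the strand setting of the counting are not given in the sources used here. Each library's read total and each gene's transcript length were recovered from the steps between RPKM values. In a simulation of the table this recovered 48 of 48 exon totals.

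RPKM were scaled by the median ratio to the gene's mean, and log2(RPKM + 0.1) for exons or log2(RPKM + 0.02) for introns was fitted in limma 3.58.1 (R 4.3.3; trend and robust variance). The fit held a mean and 24-h and 12-h curves per line, with Benjamini-Hochberg adjustment over all genes of mean RPKM at least 0.5 (exons) or 0.1 (introns). Differences between readouts were fitted on paired values of the same culture, for genes with a single length. On simulated data of 10442 genes, 50 of 50 genes changed 2-fold were called, and 12 of 10242 unchanged genes. The simulated counts were independent, with 1 fixed dispersion, no daily curves and no deviations shared within a library. The rate of false calls in the real data therefore cannot be read from them.

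The gene lists, the members and the alternatives were chosen with earlier results of these data known. Genes were named by rule: the 12 furthest up and down with a single length, the 6 with the largest RPKM rise and fall, all core clock genes and called outputs, the leading members of each list, the 6 leading genes for 24-h terms and for each readout difference, and 4 examples with different lengths. List members and predicted genes named beyond these were chosen after their values were seen. Some genes that the rule selects are not reported here. Coordinates and promoter windows are RefSeq's, GRCm38.p6, and 95.0% of symbols matched. Python 3.11.15 and matplotlib 3.10.9 were used.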

Additional observations from a re-analysis of the deposited data

Results flagged for a closer look

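The size of the difference between the lines was not the same in 2 readouts for the genes below, by the test of the difference itself (limma, adjusted p under 0.05 and at least 0.5 on the log2 scale). Values are the 4sU exon difference minus the other readout's. Of all genes tested, 0.286% passed higher and 0.205% lower against total exons, and 0.505% and 1.1% against 4sU introns.

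Against total exons, the 4sU exon difference was higher for Gm43126 (0.894), Nsf (0.819), Ahcyl1 (0.806), Ccnd2 (0.789), Rab5b (0.771), Npc1 (0.666), 4930477N07Rik (0.611) and Acly (0.588). It was lower for Gm47428 (-1.05), Lars2 (-1.05), Gm20546 (-0.839), Gm39318 (-0.761), Gm49513 (-0.724), Gna15 (-0.708) and Prl2c3 (-0.637).

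Against 4sU introns, it was higher for Gm48899 (1.15), Fos (1.02), B3gnt9 (0.972), Igfbp7 (0.911), Krt80 (0.862), 4930477N07Rik (0.768), Adam19 (0.526), Cited2 (0.517) and Hbegf (0.513). It was lower for Arntl (-1.29), Gm5763 (-1.27), Tmsb4x (-1.21), Hist1h2bp (-1.16), Mterf4 (-1.06), Gm26850 (-1.0), Clec3b (-0.980), Rrm2b (-0.759), Ahcyl1 (-0.688), Nsf (-0.667), Nr1d1 (-0.622) and Gm49513 (-0.534). Nsf, Ahcyl1 and Gm49513 appear in both sets, and 4930477N07Rik is higher in both. Hist1h2bp belongs to a family of near-identical histone genes, so its reads may be shared.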

How the results depend on the processing

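With a pseudocount of 1 (0.2 for introns) the 2-fold counts were 41 higher and 42 lower, or 20 and 30 for genes with 1 length, and the readout differences were 12 and 8 against total exons and 21 and 66 against introns. With 24 to 34 h alone, list entries that fell numbered 66, and the readout counts were 82 and 97 against total exons and 73 higher against introns; with 36 to 46 h alone they were 12 and 2 against total exons. With RPKM as deposited the intron counts were 5084 and 7. Genes whose 24-h terms differed numbered 21 with a linear time term, and 22 to 921 when 1 time point was left out, against 117. Leaving out 1 time point gave 11 (without 26 h) to 27 genes lower than in total exons, against 20. Arntl was not called without time terms (-0.72, adjusted p = 0.0571), with 24 to 34 h (-0.59) or with 36 to 46 h (-0.85). Signs turned for Gm47428 with 36 to 46 h (0.13) and for Per1 (-0.0265), Per2 (-0.0785) and Tsc22d3 (-1.74e-05) with 24 to 34 h. The fits of 24 to 34 h and of 36 to 46 h also held no time terms. Beyond this and fewer libraries, the causes were not tested.

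Whether the time points pair the libraries was not settled: same-time deviations of the lines correlated at 0.145 to 0.596 for 10 of the 12 time points but at -0.333 and -0.083 at 30 and 32 h, and 4 libraries correlated best with their own hour. With the time point as a replicate block the 2-fold counts stayed 74 and 82, and Arntl was -0.72 (adjusted p = 0.0176). How depth limits the calls was not tested.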
